A study of Mus musculus with 6 samples.

Results

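The response of mouse CD8+ T cells to 8 h of stimulation was described from 4 of the 6 arrays of a series that compares wild-type cells with cells lacking Nrdp1. The members are the wild-type and the Nrdp1-/- array whose titles name 8 h of treatment, set against the untreated array of the same genotype, so that there were 2 pairs, each of 1 genotype. The cells were naive splenic CD8+ T cells of C57/BL6 mice, either Nrdp1+/+ or Nrdp1-/-. For stimulation the labels name anti-CD3 antibody fixed to the plate at 5 µg/ml together with anti-CD28 antibody in solution at 1 µg/ml. The 4 h arrays of both genotypes entered the estimate of the spread. They also entered the choice of genes and probe sets tested and the constant added to each signal. The changes themselves compare the 8 h and untreated arrays. The labels do not give the number or age of the mice, whether cells of the same animal were used on several arrays, or whether the untreated cells were also cultured for 8 h. The p-values therefore measure only the spread between these arrays, which may be technical in part. No condition was repeated within a genotype, so any unequal response of wild-type and Nrdp1-/- cells is counted in it as well. Such unequal responses cannot be told apart from noise here, and the standard errors are not errors between replicates.

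Antibodies to CD3 and CD28 engage the T cell receptor complex and its main costimulatory receptor, and so stand in for antigen on an activated presenting cell. Engagement activates the kinases Lck and Zap70, raises cytosolic calcium, and switches on the transcription factor families NFAT, AP-1 and NF-kB. In naive CD8+ T cells this is known to start cytokine secretion and a period of growth in which amino acid uptake and ribosome production increase ahead of the first division. Nrdp1 is a ubiquitin ligase encoded by Rnf41.

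RNA was measured on Affymetrix mouse 430 2.0 arrays as MAS5 signal, a linear intensity that the authors scaled to the same trimmed mean on every array. The median signal of an array lay between 61.5 and 68.6, and the ratio of 3' to 5' signal, a sign of RNA integrity, between 0.815 and 0.894 for Gapdh and between 1.39 and 1.53 for Actb. The brightest probe set of Rnf41 gave 728 in untreated and 639 in stimulated wild-type cells and 528 and 477 in Nrdp1-/- cells. Its place relative to the deletion is unknown, so these values do not check the genotype labels. The extraction text of the labels names whole colon, against the titles. Of 9 colon epithelium markers 6 were too dim to be tested. The summed signal of all 9 was 846 to 1167 on the 4 arrays, while 7 markers of CD8 T cells summed to 63590 to 75120.

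Changes are given as the difference between 8 h and untreated in log2(signal + 4.45), the mean of both pairs with its standard error from limma (SE, 6 arrays). A gene is said to have risen or fallen where its adjusted p-value in limma was at or below 0.05. Of 10838 genes tested, 1071 rose (9.88%) and 1004 fell (9.26%), and the median change was -0.07. All 1071 risen genes were higher, and all 1004 fallen genes lower, at 8 h in both pairs. This follows largely from the test, since the change is the mean of the pairs and their disagreement adds to the spread. Of all genes tested 8022 (74%) had the same sign in both pairs. In 1046 of the risen genes both stimulated arrays lay above both untreated ones, a pattern seen in 24.0% of all genes tested. In 943 of the fallen genes both lay below, as in 32.1% of all genes. Among the genes tested more rises than falls reached 2-fold: 311 rose and 46 fell by at least 2-fold on average. The choice of genes favours rises, since a gene below the array median on both untreated arrays was tested only through stimulated ones. Taken pair by pair, 274 genes (2.53%) were at least 2-fold higher in both genotypes and 41 (0.378%) at least 2-fold lower, while 157 were at least 2-fold higher in wild-type cells alone and 273 in Nrdp1-/- cells alone. With no filter on dim probe sets 668 genes were at least 2-fold higher in both genotypes and 268 at least 2-fold lower. Of the genes tested only 22 and 26 crossed 2-fold in opposite directions. Across genes, which are not independent replicates, the changes in the 2 pairs had a Pearson correlation of 0.545 over 10838 genes.

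**Figure D1:**
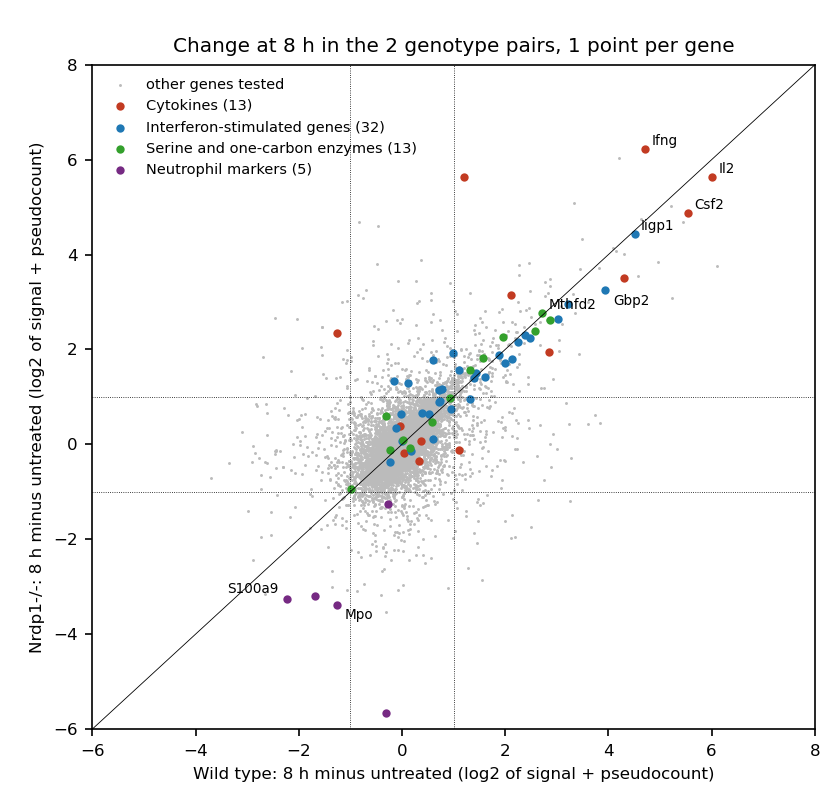
Each point is a gene, with its change at 8 h in wild-type cells on the horizontal axis and in Nrdp1-/- cells on the vertical axis, both in log2 of signal plus pseudocount. Dotted lines mark 2-fold and the solid line equal change. Il2, Csf2 and Iigp1 lie near the line of equal change, Ifng lies above it, and the neutrophil markers S100a9 and Mpo lie at the lower left, with larger falls in Nrdp1-/- cells.

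The counts depended on the variance model and on single arrays. When limma was run without the intensity trend, 103 genes rose and 5 fell. Without the untreated Nrdp1-/- array 700 rose and 349 fell, and without its 8 h array 689 and 392. Without the untreated wild-type array 603 fell, and without the 4 h array of wild-type or Nrdp1-/- cells 1515 or 1537 fell. In all, 501 risen and 161 fallen genes kept their call whichever array was left out, and 101 and 5 kept it without the trend. The genes given below with a standard error kept their call whichever array was left out unless stated. In lists for which 0 falls are given, at most 1 member was lower at an unadjusted p under 0.05 in limma. Averaging the probe sets of a gene in place of the brightest ended some calls among the genes given below with a standard error. These were the calls of Nr4a3, Bcl2l1, Bid, Il6ra, Itga4, Themis, Camk4, Zap70, Ipo5, Psme3, Cad, Gpnmb, Syne1 and Sdc1. Of the genes given without one, the limma calls of Cxcr3, Foxo1, Oasl2, Rsad2 and Csf1r ended without either the untreated or the 8 h Nrdp1-/- array, with adjusted p up to 0.109, 0.356, 0.127, 0.357 and 0.293. The call of Rel ended without the untreated Nrdp1-/- array (adjusted p = 0.254), that of Lif without the 8 h Nrdp1-/- array (0.107), that of Il17a without either 8 h array (up to 0.107), and that of Nfkbia without the untreated array of either genotype or the 8 h wild-type array (up to 0.17).

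Most immediate early factors of the Nr4a and Egr families rose. Of 8 tested 6 rose and 0 fell, all 6 at least 2-fold in both pairs. Nr4a1, an orphan nuclear receptor that follows receptor signal strength, went from 206 to 2538 in wild-type cells and from 491 to 3939 in Nrdp1-/- cells, a rise of 3.29 ± 0.15. Nr4a3 went from 151 to 2188 and from 356 to 4738, a rise of 3.77 ± 0.15. Egr2, which induces inhibitors of T cell activation, went from 144 to 571 and from 315 to 1558 (2.12 ± 0.15). For all 3 the stimulated arrays lay above both untreated arrays, as in 24.0% of all genes tested. Among 11 AP-1 proteins and their relatives, which bind DNA as dimers, 5 rose, or 3 without the untreated wild-type array. Jun went from 120 to 579 and from 242 to 760 (1.93 ± 0.18). Fos went from 128 to 557 and from 433 to 1225 (1.79 ± 0.17). Myc, the growth regulator, went from 1117 to 5113 and from 1199 to 6960 (2.36 ± 0.11), and was the only risen gene of 11 in its network. Of that network's antagonists of Myc, Mxd4 and Mxi1 fell, calls that both ended without the 8 h Nrdp1-/- array, and that of Mxi1 also without the untreated one. Irf4, which scales with receptor signal, went from 384 to 2828 and from 422 to 4791 (3.18 ± 0.14). Its relative Irf8 went from 193 to 952 and from 163 to 1992 (2.92 ± 0.25). Bhlhe40, a repressor of Il10 in T cells, went from 146 to 645 and from 334 to 1420 (2.09 ± 0.15). With Irf1 they belonged to 8 risen genes among 17 regulators of effector differentiation. Of these 17 another 2 fell, or 0 without the untreated Nrdp1-/- array.

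**Figure D2:**
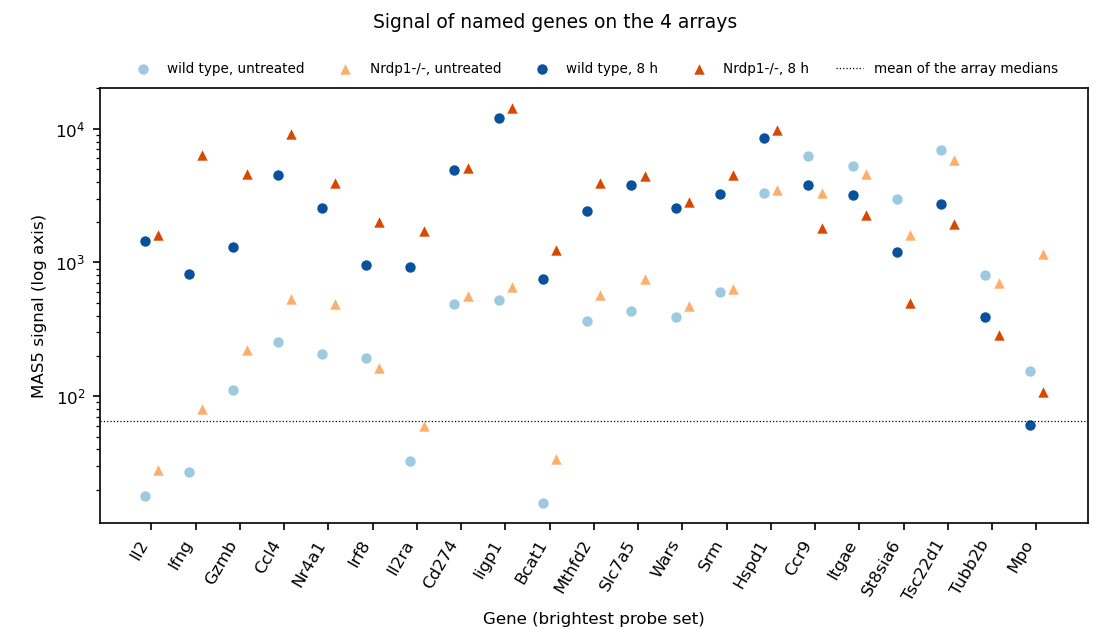
MAS5 signal on a log axis for 21 named genes on the 4 arrays, with circles for wild-type and triangles for Nrdp1-/- cells, pale for untreated and dark for 8 h; the dotted line is the mean of the array medians. The dark symbols lie above both pale ones from Il2 to Hspd1 and below them in Itgae, St8sia6, Tsc22d1, Tubb2b and Mpo, while the untreated Nrdp1-/- array of Ccr9 lies below the stimulated wild-type one.

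Most genes of the NF-kB system rose, inhibitors among them. Of 17 genes 11 rose and 1, the adaptor Traf1, fell (-0.41, a call that ended without the untreated array of either genotype or the 8 h Nrdp1-/- array). Both stimulated arrays lay above both untreated ones in 15 of the 17, a pattern seen in 24.0% of all genes tested. Of the 11 rises 6 were kept whichever array was left out and 1 without the trend. Nfkbid, a nuclear IkB protein, went from 1186 to 2915 and from 893 to 3337 (1.59 ± 0.15). Bcl3, another nuclear IkB protein, went from 237 to 711 and from 264 to 719 (1.5 ± 0.14). The subunit genes Nfkb2 (1.16 ± 0.15), Relb (0.83 ± 0.11) and Rel (0.77) rose, and Rela had a change of 0.11. Promoters of these genes are printed because several carry the NF-kB motif (GGG, 2 bases of any kind, TT, 1 base of any kind, CC), searched on both strands of the 250 bases before the start site. RefSeq lists more than 1 start for some genes, and 9 of the 11 risen genes were matched to 14 promoters. Of these 42.9%, from 5 genes, held the motif, against 4.11% of all 32851 RefSeq promoters and 6.17% of those of all risen genes. In the lines that follow, capitals mark the matches, each sequence ends at the base before the start site, and the coordinates are those of RefSeq on GRCm38.p6.
Nfkb2 (chr19:46304617-46304736, plus strand): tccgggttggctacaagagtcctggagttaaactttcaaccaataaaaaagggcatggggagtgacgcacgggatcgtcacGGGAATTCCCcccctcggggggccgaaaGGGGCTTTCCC
Nfkbia (chr12:55492648-55492767, minus strand): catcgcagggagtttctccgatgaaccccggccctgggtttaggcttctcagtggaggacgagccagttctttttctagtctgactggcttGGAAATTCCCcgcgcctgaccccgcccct
Rel (chr11:23770970-23771089, minus strand): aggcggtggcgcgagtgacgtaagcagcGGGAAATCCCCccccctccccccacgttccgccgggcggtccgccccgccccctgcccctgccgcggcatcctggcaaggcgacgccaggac
Nfkbia encodes IkB-alpha, the main cytosolic inhibitor, which rose by 0.44. The first base of its match lies 29 bases before the start site. The 3 promoters were chosen after the matches were seen, and a match is a description of letters, not a measured binding site.

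Feedback inhibitors of other pathways were called in smaller numbers. Of 14 genes that restrain MAP kinases 4 rose and 1 fell, with 2 risen without the untreated or the 8 h Nrdp1-/- array. Spry1 went from 83.2 to 420 and from 95.1 to 369 (2.09 ± 0.20), and Dusp5 from 296 to 570 and from 256 to 939 (1.4 ± 0.21). Of 8 SOCS family genes, inhibitors of cytokine receptors, 4 rose, or 2 without the untreated Nrdp1-/- array. Cish, a target of the IL-2 signal, went from 194 to 729 and from 227 to 1604 (2.34 ± 0.20).

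Cytokine genes included the gene with the largest change of all, Il2. Of 13 tested 7 rose and 0 fell, all 7 at least 2-fold in both pairs, and the list median was 2.40. Another 6 listed cytokines were too dim to be tested. A gene below the array median on both untreated arrays was tested only if it reached the median on stimulated ones. That rule favours rises and a high median here and in every list below that holds such genes. Among these are the chemokines, the TNF family ligands, the cytokine receptors (Il2ra) and the Atf4 and amino acid genes (Bcat1, Cth). Il2, the T cell growth factor, gave 18.0 and 28.0 on the untreated arrays and 1450 and 1603 on the stimulated ones. Both untreated values lay below the array median, a state called dim here, so the rise of 5.82 ± 0.15 stands for at least 23.5-fold against that median. Csf2, which encodes GM-CSF, went from 1.54 to 277 and from 18.4 to 663 (5.21 ± 0.34, at least 6.59-fold). Ifng, which encodes interferon gamma, went from 27.1 to 825 in wild-type and from 80.4 to 6323 in Nrdp1-/- cells. Its change was thus 4.72 in the first pair and 6.22 in the second, a difference that was not tested, with a mean of 5.47 ± 0.27. Tnf went from 37.7 to 822 and from 105 to 1231 (3.90 ± 0.20). Lif rose by unequal amounts, 1.20 in wild-type and 5.64 in Nrdp1-/- cells (mean 3.42), a difference that was not tested. Lta (2.63) and Il17a (2.40) also rose, while Il10 (-0.01), Tgfb1 (0.22) and Ltb (-0.07) did not pass the test. Without the trend 4 of the 7 calls remained. The promoter of Il2 is shown because Il2 led the response. Capitals mark GGAAA, the core to which NFAT binds, on either strand.
Il2 (chr3:37125955-37126104, minus strand): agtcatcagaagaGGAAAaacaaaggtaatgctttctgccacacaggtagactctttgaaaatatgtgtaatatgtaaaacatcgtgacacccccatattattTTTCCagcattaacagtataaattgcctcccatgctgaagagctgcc
The 2 matches begin 137 and 47 bases before the start site, and 55.6% of all RefSeq promoters hold this short motif.

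Several chemokine genes rose. Of 10 tested 6 rose and 0 fell, with a median of 2.75. Ccl3 and Ccl4, which attract inflammatory cells, went from 52.4 to 2476 and from 207 to 5482 (Ccl3, 5.07 ± 0.24) and from 252 to 4526 and from 536 to 9133 (Ccl4, 4.11 ± 0.12). Xcl1, which attracts cross-presenting dendritic cells, went from 152 to 1715 and from 224 to 2936 (3.57 ± 0.12). Of the ligands of Cxcr3, all dim without stimulation, Cxcl9 and Cxcl10 rose. Cxcl10 went from 60.8 to 658 and from 62.8 to 2289 (4.22 ± 0.34, at least 18.9-fold). Cxcl9 went from 2.40 to 121 and from 2.74 to 471 (5.12 ± 0.57, at least 3.67-fold). Cxcl11 moved oppositely in the pairs, from 15.7 to 5.61 in wild-type and from 30.3 to 94.9 in Nrdp1-/- cells, and did not pass the test. Their receptor gene Cxcr3 fell by 0.47. Cxcl9 is also a known product of myeloid cells, whose markers are given further on, and their part in its change was not tested. Ccl5 had a change of -0.12 and Ccl1 moved oppositely in the pairs, at -0.84 in wild-type and 4.68 in Nrdp1-/- cells, without passing the test.

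Some ligands and receptors of the TNF family rose, and 0 fell. Of 7 ligands tested 4 rose. Tnfsf14, also called LIGHT, went from 7.94 to 384 and from 40.6 to 645 (4.41 ± 0.30, at least 7.65-fold). Tnfsf11, or RANKL, went from 11.5 to 592 and from 53 to 482 (4.16 ± 0.54, at least 8.22-fold). Of 8 receptors 2 rose, with 5 without the 4 h array of either genotype and 4 without the 8 h wild-type array. Tnfrsf9, the costimulator 4-1BB, went from 84.7 to 627 and from 133 to 1238 (3.0 ± 0.18). Tnfrsf18, or GITR, went from 1610 to 2930 and from 1776 to 3532 (0.93 ± 0.10). Tnfrsf4 (0.15) and Cd27 (-0.18) did not pass the test.

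Cytokine receptor genes moved in both directions. Of 21 tested 4 rose and 4 fell, with 2 risen without the 8 h Nrdp1-/- array and 1 fallen without the untreated wild-type, the untreated Nrdp1-/- or the 8 h Nrdp1-/- array. Il2ra, the subunit that gives the IL-2 receptor its high affinity, went from 32.5 to 916 and from 59.4 to 1702 (4.69 ± 0.17, at least 19.2-fold). Il15ra went from 149 to 508 and from 189 to 857 (1.95 ± 0.20). Il6ra fell from 4397 to 2800 and from 4547 to 2541 (-0.74 ± 0.11). Il7r, which carries the survival signal of resting T cells, went from 28318 to 26315 and from 29110 to 23206 and did not pass the test (-0.22 ± 0.10, adjusted p = 0.15). The early activation marker Cd69 went from 637 to 3633 and from 1048 to 6769 (2.60 ± 0.18).

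Inhibitory receptors and ligands were called in 7 of 9 cases, with 6 risen and 1, the ectonucleotidase Nt5e, fallen (-0.59). Nt5e lost its call without the untreated Nrdp1-/- array. Cd274, which encodes PD-L1, went from 487 to 4885 and from 562 to 5070 (3.24 ± 0.21). The second PD-1 ligand, Pdcd1lg2, went from 68.0 to 176 and from 66.9 to 268 (1.63 ± 0.30). Cd160 (1.74 ± 0.20) and Cd200 (1.96 ± 0.25) rose as well. Ctla4 had a change of 0.23 and did not pass the test.

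Of 14 granule genes 3 rose and 2 fell, or 1 without the 8 h Nrdp1-/- array. Gzmb, the cytotoxic protease granzyme B, went from 112 to 1299 and from 223 to 4560 (3.91 ± 0.19). Serpinb9, which protects the cell from its own granzyme B, went from 473 to 1204 and from 446 to 1570 (1.57 ± 0.15). Gzmk fell within each pair, from 569 to 345 and from 2634 to 1757 (-0.65 ± 0.12), but the groups overlapped because all Nrdp1-/- values lay above all wild-type ones. Among 13 genes of the Bcl2 family the survival genes Bcl2 (0.72 ± 0.10) and Bcl2l1 (1.00 ± 0.16) and the death agonist Bid (0.84 ± 0.16) rose. Another death agonist, Bad, fell (-0.48), a call that ended without any one of the untreated or 8 h arrays. Bcl2 went from 2471 to 3925 and from 3787 to 6445.

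Most interferon-stimulated genes rose. The targets of interferons include guanylate-binding proteins and immunity-related GTPases, which attack the vacuoles of intracellular pathogens. Of 32 genes tested 23 rose and 0 fell, 14 of them at least 2-fold in both pairs, and the median was 1.16. Of the 23 calls 18 were kept whichever array was left out and 8 without the trend. The summed signal of the 33 listed genes on the array went from 33630 to 137600 in wild-type and from 38310 to 145500 in Nrdp1-/- cells. Iigp1 went from 525 to 12086 and from 659 to 14256 (4.47 ± 0.17). Gbp2 went from 1243 to 18995 and from 2060 to 19620 (3.59 ± 0.18). Gbp6 went from 1163 to 10839 and from 1325 to 10263 (3.08 ± 0.17), and Irgm1 from 774 to 6332 and from 1022 to 6450 (2.84 ± 0.12). In these 4 genes the stimulated arrays of the genotypes differed far less than stimulated from untreated. The GTPases Igtp (2.35), Irgm2 (2.36), Gbp3 (1.85) and Gbp7 (1.97) rose too. The antiviral effectors of the list changed less: Ifit1 rose by 1.33, Ifit3 by 1.51, Oasl2 by 1.46 and Rsad2 by 1.19, while Ifit2 (-0.30), Oas2 (0.02), Mx1 (0.32) and the RNA sensor Ddx58 (0.03) did not pass the test. As background, Iigp1, Gbp2 and Irgm1 are classed as targets of interferon gamma, and Ifit1 and Oasl2 as targets of type I interferon. The difference in size between these groups was not tested.

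The promoters of this list were searched for the element that IRF factors bind. The IRF element (GAAA, 2 bases of any kind, GAAA), on either strand within 250 bases before the start site, was in 57.9% of 19 promoters, which belong to 17 of the 23 risen interferon-stimulated genes. It was in 2.98% of all RefSeq promoters and 2.76% of those of all genes tested. Promoters of 2 GTPase families and of Ifit1 are shown to compare the place of the element, in capitals.
Gbp2 (chr3:142620543-142620662, plus strand): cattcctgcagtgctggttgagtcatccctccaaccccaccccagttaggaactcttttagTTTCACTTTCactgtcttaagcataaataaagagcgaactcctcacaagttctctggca
Irgm1 (chr11:48871421-48871540, minus strand): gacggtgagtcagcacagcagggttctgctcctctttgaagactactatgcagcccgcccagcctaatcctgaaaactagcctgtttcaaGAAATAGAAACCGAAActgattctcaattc
Igtp (chr11:58199436-58199555, plus strand): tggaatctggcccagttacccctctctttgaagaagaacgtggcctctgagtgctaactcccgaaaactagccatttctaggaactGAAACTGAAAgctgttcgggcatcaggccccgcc
Ifit1 (chr19:34640769-34640888, plus strand): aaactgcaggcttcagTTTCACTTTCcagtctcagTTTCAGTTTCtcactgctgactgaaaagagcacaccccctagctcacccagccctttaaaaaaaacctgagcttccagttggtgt
The element begins 59 bases before the start site in Gbp2 and 34 in Igtp. Irgm1 has 2 overlapping matches, at 30 and 24 bases, and Ifit1 has 2 separate ones, at 104 and 85 bases. These promoters were chosen after the matches were seen.

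**Figure D3:**
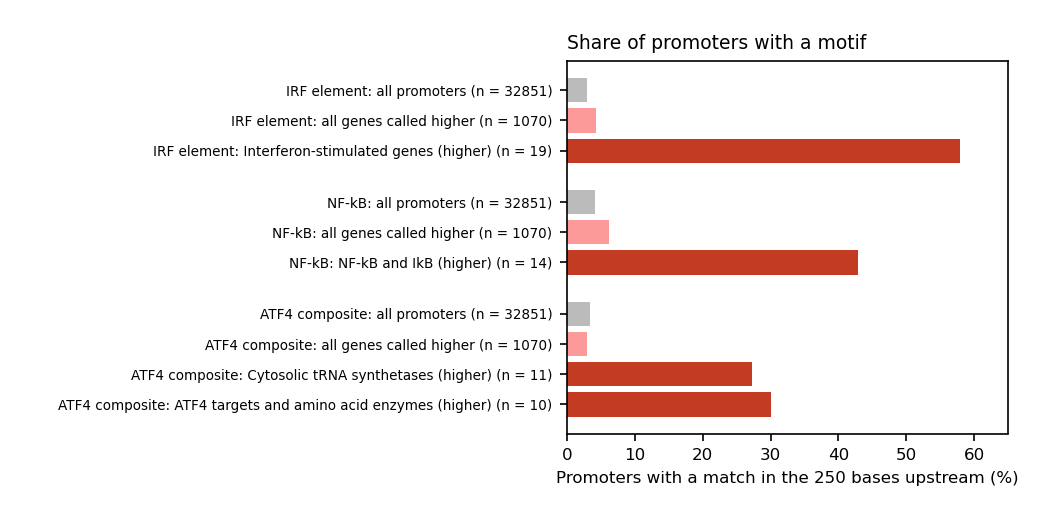
Bars give the percent of promoters with a match to the named motif in the 250 bases before the start site, for all RefSeq promoters (grey), those of all risen genes (pale red) and those of the risen members of a list (dark red), with the number of promoters in parentheses. The IRF element reaches 57.9% and the NF-kB motif 42.9% in their lists, against 2.98% and 4.11% of all promoters.

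Most genes that load peptides onto MHC class I rose, while B2m, H2-K1 and H2-D1 did not pass the test. Of 13 genes 8 rose and 0 fell, with a median of 0.74. Of the 8 calls 7 were kept whichever array was left out and 0 without the trend. Tapbp, or tapasin, the bridge between the peptide transporter and class I, went from 7376 to 14474 and from 7849 to 14693 (0.94 ± 0.10). The trimming peptidase Erap1 went from 939 to 1893 and from 1217 to 2169 (0.92 ± 0.12). Psmb10, a catalytic subunit of the immunoproteasome, went from 3177 to 6392 and from 3301 to 5372 (0.85 ± 0.16), and its activator Psme1 from 8890 to 15988 and from 9079 to 15894 (0.83 ± 0.11). Nlrc5, the class I transactivator, rose by 0.77. B2m, the class I light chain, went from 28805 to 31718 and from 31831 to 29254 (0.01 ± 0.11), and H2-K1 had a change of 0.05 and H2-D1 of -0.07. Outside the list the far dimmer class I gene H2-T24 rose, from 40.5 to 142 and from 72.4 to 234 (1.67 ± 0.33). The probe sets of B2m, H2-K1 and H2-D1 were among the brightest on the arrays, and compression of the signal at that level was not tested.

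Many genes of amino acid supply rose, some by more than 2 on the log2 scale. Of 13 serine and one-carbon enzymes 8 rose and 0 fell, with a median of 0.95, and 6 kept their call without the trend. Mthfd2, which runs the mitochondrial folate cycle in dividing cells, went from 365 to 2432 and from 569 to 3906 (2.75 ± 0.13). Psat1, in serine synthesis, went from 445 to 3286 and from 767 to 4714 (2.74 ± 0.14). Shmt1 (2.48 ± 0.21) and Shmt2 (2.11 ± 0.14), which pass a carbon from serine to folate, rose in both compartments. Of 15 other amino acid enzymes and targets of Atf4, the transcription factor of the amino acid response, 10 rose and 0 fell. Bcat1, the cytosolic branched-chain aminotransferase, went from 15.9 to 745 and from 33.7 to 1232 (5.11 ± 0.22, at least 14.7-fold). Cth, which makes cysteine, went from 4.32 to 603 and from 42.2 to 631 (4.94 ± 0.55, at least 9.49-fold). Asns, asparagine synthetase, went from 168 to 877 and from 572 to 2545 (2.25 ± 0.13). Among 14 amino acid transporters 7 rose. Slc7a5, a carrier of large neutral amino acids, went from 436 to 3800 and from 758 to 4410 (2.82 ± 0.15). Slc7a1, the arginine carrier, went from 1740 to 4008 and from 2074 to 5677 (1.33 ± 0.11).

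The cytosolic tRNA synthetases rose nearly as a set and their mitochondrial counterparts did not. Of 19 cytosolic synthetases 18 rose and 0 fell, with a median of 0.84, and 15 kept their call whichever array was left out, though only 1 without the trend. Qars, at 0.05, was the exception. Wars, the tryptophan enzyme and a known interferon target, led the list and went from 392 to 2529 and from 469 to 2815 (2.62 ± 0.21). Aars went from 673 to 1551 and from 726 to 2216 (1.4 ± 0.13), and Mars1 from 1226 to 2614 and from 1280 to 3010 (1.16 ± 0.11). Of 15 mitochondrial synthetases only Yars2 rose (0.62), with a list median of 0.11, and its call ended without the 8 h Nrdp1-/- or the untreated wild-type array. The untreated signals of the mitochondrial list were lower, with a median of 478.6 against 1862, and the part of that in the difference was not tested. Promoters of the list are shown for the composite element TGATGNAA, to which Atf4 binds with a partner. It was in 27.3% of 11 promoters, 1 for each of 11 matched genes of the 18 risen synthetases, and in 3 of 10 promoters of the risen Atf4 and amino acid genes, against 3.45% of all promoters and 2.90% of those of all risen genes.
Aars (chr8:111033722-111033841, plus strand): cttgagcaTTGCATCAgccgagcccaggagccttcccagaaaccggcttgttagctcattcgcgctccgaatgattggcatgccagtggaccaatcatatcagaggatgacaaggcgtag
Tars (chr15:11399659-11399778, minus strand): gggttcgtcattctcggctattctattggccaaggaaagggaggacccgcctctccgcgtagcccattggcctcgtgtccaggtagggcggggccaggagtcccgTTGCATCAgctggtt
Got1 (chr19:43524606-43524725, minus strand): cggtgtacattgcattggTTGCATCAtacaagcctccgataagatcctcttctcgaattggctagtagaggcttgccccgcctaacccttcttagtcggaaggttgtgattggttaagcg
Capitals mark the element, here on the reverse strand. It begins 112 bases before the start site in Aars, 15 in Tars (1.01) and 102 in Got1, the cytosolic aspartate aminotransferase. These 3 were chosen after the matches were seen.

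Most genes that build ribosomes rose, and most genes of the ribosome's own proteins did not pass the test. Of 58 genes of ribosome biogenesis, which make and process ribosomal RNA in the nucleolus, 47 rose and 0 fell. The median was 0.92, and 57 were positive in both pairs, as were 3328 of all 10838 genes tested. Of the 47 calls 37 were kept whichever array was left out and 4 without the trend. Nop16 went from 462 to 1301 and from 482 to 1908 (1.73 ± 0.15). Polr1b, a subunit of RNA polymerase I, went from 188 to 611 and from 230 to 794 (1.72 ± 0.19), and Nolc1 from 603 to 1787 and from 805 to 2845 (1.69 ± 0.13). Of 48 cytosolic ribosomal proteins 4 rose and 1 fell, with a median of -0.02. The risen ones were Rpl7l1 (0.83 ± 0.14), Rps27l (0.73 ± 0.15), Rps25 (0.63 ± 0.11) and Rpl12 (0.44), the last of which lost its call without either the untreated or the 8 h Nrdp1-/- array. Rpl7l1 and Rps27l are paralogues of ribosomal proteins rather than the standard subunits. The ribosomal protein probe sets had a median untreated signal of 34302, against 752.2 over all genes tested, and whether they could show a further rise was not tested.

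**Figure D4:**
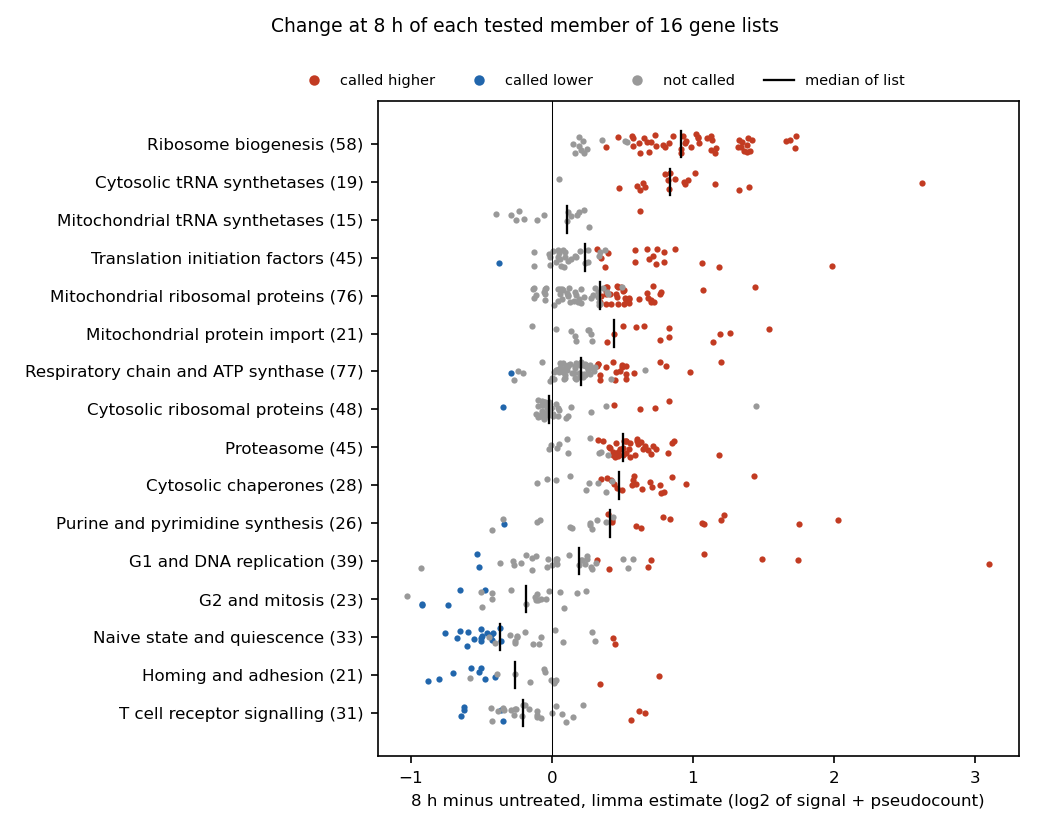
Each point is a tested gene, placed by its change at 8 h on the horizontal axis (limma estimate, log2 of signal plus pseudocount) in rows of 16 gene lists, red where it rose, blue where it fell and grey where it did not pass the test; black bars are list medians. Ribosome biogenesis and cytosolic tRNA synthetases lie to the right, with medians of 0.92 and 0.84, and cytosolic ribosomal proteins at -0.02.

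Translation factors, nuclear transport and protein quality control rose in part. Of 45 initiation factors and their regulators 17 rose, or 11 without the untreated Nrdp1-/- array, and 1 fell. Eif4ebp1, which holds back the cap-binding protein, went from 646 to 2368 and from 758 to 3266 (1.98 ± 0.14), and Eif4e, the cap-binding protein itself, from 1630 to 3065 and from 1605 to 3741 (1.06 ± 0.11). Of 24 nuclear transport genes 10 rose, led by the importin Ipo5 (1.46 ± 0.13) and by Ranbp1 (1.32 ± 0.11), a cofactor of the Ran GTPase. Of 45 proteasome genes 35 rose and 0 fell, or 22 risen without the untreated Nrdp1-/- array, with a median of 0.51. Of the 35 calls 17 were kept whichever array was left out. Psme3, the activator of the nuclear proteasome, went from 372 to 734 and from 367 to 972 (1.18 ± 0.15). Of 28 cytosolic and mitochondrial chaperones 19 rose, or 12 without the untreated Nrdp1-/- array. Without the trend 0 risen calls were kept among nuclear transport and proteasome genes, and 1 each among initiation factors and chaperones. Hspd1, the mitochondrial chaperonin, went from 3276 to 8543 and from 3481 to 9790 (1.44 ± 0.10). Among 26 genes of folding and secretion in the endoplasmic reticulum 4 rose and 3 fell, with 1 risen and 0 fallen without the untreated Nrdp1-/- array. Hspa5 among them rose by 0.60 ± 0.10.

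Some mitochondrial genes rose, and in the larger lists most members did not pass the test. Of 76 mitochondrial ribosomal proteins 34 rose and 0 fell, with a median of 0.34. That count was 20 without the untreated wild-type array, 13 without the untreated and 16 without the 8 h Nrdp1-/- array, 21 after median centring and 15 with probe sets averaged. Mrps28 went from 524 to 1318 and from 543 to 1610 (1.44 ± 0.13). Of 77 subunits of the respiratory chain and ATP synthase 20 rose and 1 fell, with 12, 6 and 7 risen without the same 3 arrays. Uqcrq, a subunit of complex III, went from 2795 to 5781 and from 2699 to 6919 (1.20 ± 0.11) by its brightest probe set, but the sign turned, to -0.25, when its probe sets were averaged. Of 21 genes of protein import 12 rose, led by Timm8a1, from 801 to 2137 and from 1013 to 3232 (1.54 ± 0.14). Without the trend 1 of the 34 risen mitochondrial ribosomal proteins kept its call, and 0 of the 20 respiratory and 12 import genes did.

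Nucleotide and polyamine synthesis genes included some of the larger rises. Of 26 purine and pyrimidine genes 13 rose and 1 fell. Of the 13 rises 9 were kept whichever array was left out and 0 without the trend. Ctps, which makes CTP, went from 425 to 1138 and from 403 to 1736 (1.75 ± 0.17), and Cad, the entry enzyme of pyrimidine synthesis, from 472 to 980 and from 481 to 1234 (1.20 ± 0.15). Nme1, a nucleoside diphosphate kinase, rose unequally, from 682 to 6206 in wild-type and from 1817 to 3344 in Nrdp1-/- cells (2.03 ± 0.36); that inequality was not tested. Of 9 polyamine genes 3 rose and 1 fell. Srm, spermidine synthase, went from 606 to 3241 and from 633 to 4514 (2.62 ± 0.13), and Odc1, ornithine decarboxylase, from 2422 to 5764 and from 1874 to 7534 (1.63 ± 0.15). Of 16 genes of glycolysis and lactate transport 8 rose and 1 fell, with 5 risen without the untreated Nrdp1-/- array. Hk2, the inducible hexokinase, went from 144 to 829 and from 135 to 1303 (2.86 ± 0.20). Among 24 sterol genes 5 rose and 1 fell. The rises were led by Idi1, from 518 to 1512 and from 525 to 1579 (1.56 ± 0.12), and by Sqle (1.43 ± 0.17).

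Genes of G1 rose in part, and no gene of G2 and mitosis rose. Of 39 genes of G1 and DNA replication 8 rose and 2 fell, with 5 risen without the 8 h wild-type array. Cdk6 went from 1306 to 3346 and from 1800 to 5580 (1.49 ± 0.13), and its partner Ccnd2 from 5057 to 11296 and from 6795 to 13574 (1.08 ± 0.10). The inhibitor Cdkn1a rose as well, from 82.8 to 277 and from 137 to 490 (1.74 ± 0.21). Of 23 genes of G2 and mitosis 0 rose and 5 fell in limma, with 0 higher at an unadjusted p under 0.05, among them Plk1 (-0.92 ± 0.22) and the proliferation marker Mki67 (-0.65 ± 0.17). None of these 5 falls was called without the untreated or the 8 h Nrdp1-/- array, and 2 were without the untreated wild-type array.

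Some genes of the naive and quiescent state fell, by less than 2-fold. Of 33 tested 16 fell and 2 rose, and the median was -0.37. In both pairs 25 of the 33 were lower, as were 4694 of all 10838 genes tested. The fallen count was 4 without the untreated and 9 without the 8 h Nrdp1-/- array, and 3 genes kept their fall whichever array was left out. Sesn1, an inhibitor of mTORC1, went from 7765 to 5444 and from 6356 to 3164 (-0.76 ± 0.12). Pik3ip1, a brake on PI3 kinase, went from 9721 to 6611 and from 8979 to 5219 (-0.67 ± 0.10), and Klf6 from 5343 to 3344 and from 5198 to 3613 (-0.60 ± 0.10). In all 3 both stimulated arrays lay below both untreated ones, as in 32.1% of all genes tested. Foxo1, the factor that maintains Il7r and Klf2, fell by 0.43, while Klf2 itself went from 14707 to 13451 and from 14706 to 11207 and did not pass the test (-0.26 ± 0.10, adjusted p = 0.11).

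Some genes of receptor proximal and calcium signalling fell. Of 17 genes of calcium entry and NFAT 0 rose in limma, with 1 higher at an unadjusted p under 0.05, and 6 fell, or 3 without the untreated or the 8 h Nrdp1-/- array. Camk4, a calcium-dependent kinase, went from 5698 to 3594 and from 4210 to 2706 (-0.65 ± 0.12), and Orai2, a calcium channel subunit, from 2888 to 1922 and from 2357 to 1543 (-0.60 ± 0.12). Among 31 components of receptor signalling there were 3 rises and 5 falls, a fallen count that ranged from 3 (without either untreated array or the 8 h Nrdp1-/- array) to 12 (without the 4 h array of either genotype), with 8 without the 8 h wild-type array. The risen count was 1 without the untreated Nrdp1-/- array. Over all genes tested 9.88% rose and 9.26% fell. The 3 rises among 31 lie near the first share, and neither count was tested against these shares. Themis, an adaptor of thymocyte selection, went from 2749 to 1790 and from 2752 to 1725 (-0.65 ± 0.11), and the kinase Tec from 5702 to 3871 and from 4417 to 2749 (-0.62 ± 0.10). Zap70 went from 1366 to 2020 and from 1350 to 2158 (0.62 ± 0.12), a call that ended when its probe sets were averaged, as did that of Themis. Rnf41 had a change of -0.17 ± 0.14 and did not pass the test.

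Several adhesion and homing receptors fell. Of 21 tested 8 fell and 2 rose, with 4 fallen without the untreated and 3 without the 8 h Nrdp1-/- array. Itgae, the CD103 integrin chain, went from 5294 to 3170 and from 4565 to 2248 (-0.88 ± 0.11). Ccr9, the gut-homing chemokine receptor, went from 6269 to 3786 and from 3294 to 1792 (-0.80 ± 0.10), with lower values in Nrdp1-/- cells in both conditions, so that the groups overlapped. Itga4 went from 7800 to 4812 and from 8154 to 4996 (-0.70 ± 0.11), while Icam1 rose from 1502 to 2336 and from 1747 to 3238 (0.76 ± 0.11). The risen count of 2, Icam1 and Cd44, was 1 without any of the 4 untreated and 8 h arrays. Sialyltransferases, which cap surface glycans, were split between 1 risen and 3 fallen of 13, with 6 fallen without the 8 h wild-type and 1 without the untreated Nrdp1-/- array. St6galnac4 rose from 219 to 834 and from 306 to 1074 (1.85 ± 0.14), and St8sia6 fell from 2963 to 1195 and from 1606 to 500 (-1.49 ± 0.15).

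Genes outside these lists changed as well. Tsc22d1, a leucine zipper protein, fell from 6943 to 2731 and from 5813 to 1923 (-1.47 ± 0.11) and kept its call without the trend. A dimmer of its probe sets had a change of 0.12. Syne1, a nesprin of the nuclear envelope, fell from 3114 to 1398 and from 2402 to 1099 (-1.14 ± 0.12). The tubulin gene Tubb2b fell from 811 to 392 and from 704 to 289 (-1.16 ± 0.15). 1110020A21Rik went from 172 to 19.4 and from 134 to 21.0 (-2.67 ± 0.45, at least 2.27-fold lower), and Mfsd4b4 from 219 to 83.5 and from 293 to 131 (-1.24 ± 0.23). Among rises outside the lists Lad1, an anchoring filament protein of epithelia, went from 95.2 to 1960 and from 97.1 to 1622 (4.15 ± 0.14), and Gm4951, an immunity-related GTPase by sequence, from 12.3 to 281 and from 31.0 to 621 (4.12 ± 0.38, at least 6.43-fold).

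Some markers of neutrophils and other myeloid cells fell at 8 h, by more in the Nrdp1-/- pair, a difference between the pairs that was not tested. Of 5 neutrophil markers tested 3 fell and 0 rose, and the median change was -1.27 in wild-type and -3.26 in Nrdp1-/- cells. Mpo, a granule peroxidase, went from 153 to 61.0 in wild-type and from 1157 to 107 in Nrdp1-/- cells (-2.33 ± 0.39), and Prtn3 from 113 to 32.1 and from 771 to 80.1 (-2.44 ± 0.39). The summed signal of the 8 listed markers on the array was 488 and 280 in wild-type cells and 2700 and 340 in Nrdp1-/- cells. Of 9 myeloid markers 3 fell and 0 rose, with 0 fallen without the untreated and 1 without the 8 h Nrdp1-/- array, 5 without the untreated and 6 without the 8 h wild-type array. Csf1r, the macrophage growth factor receptor, went from 167 to 131 and from 923 to 177. Over the 10 myeloid markers on the array the summed signal was 3226 and 3422 in wild-type and 11900 and 3646 in Nrdp1-/- cells. No marker of either list was listed at 0. In these 3 lists of other cells, the B cell list included, 0 markers were higher at an unadjusted p under 0.05. Gpnmb, a macrophage gene among the larger falls, went with them, from 124 to 45.7 and from 746 to 88.3 (-2.19 ± 0.35). In bulk RNA fewer cells of a type and less RNA per cell cannot be told apart. Of 8 B cell markers tested 1 fell and 0 rose in limma. The summed signal of the 11 on the array was 16280 and 14660 in wild-type and 3245 and 2994 in Nrdp1-/- cells. Of 7 CD8 T cell markers Cd8b1 fell (-0.33), a call that ended without any of the untreated or 8 h arrays, and Cd3e went from 2450 to 2384 and from 3007 to 2670. Of 4 plasma cell markers 2 fell and 0 rose, with 0 fallen without the untreated Nrdp1-/- array. Their summed signal was 8603 and 7366 in wild-type and 21230 and 14450 in Nrdp1-/- cells. Sdc1, the plasma cell syndecan, went from 132 to 60.4 and from 289 to 117 (-1.17 ± 0.34), a call that also ended without the 8 h wild-type array. The part of these cells in the changes of other genes was not tested.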

How the data were processed

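The series holds 6 arrays of CD8+ T cells, 1 for each genotype at 0, 4 and 8 h, and this comparison used 4 of them as 2 pairs. What the authors deposited is a table of signal intensities, linear and made with MAS5 per the submitters' processing notes, where no version is given. Scaling by the authors shows in the values: trimmed of 2% at either end, every array had a mean of 500. MAS5 multiplies an array by 1 factor, so a change of most transcripts in the same direction would be hidden. Detection calls were not used here, and the number of arrays limits the precision.

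Of 45101 probe sets 64 were controls and left out. The platform annotation gave 1 gene symbol for 34945 and several for 932, and the other 9160 have no name here. By Entrez identifier 34741 matched RefSeq, with 0 symbols changed. Each of 18193 genes was taken by its brightest single-symbol probe set. To each signal 4.45, the 10th percentile of the table, was added before taking log2, which understates the change of dim genes. Genes that reached the array median on at least 2 of 6 arrays were tested, 10838 in all. A gene below the median on both untreated arrays was thus tested only if at least 2 stimulated arrays reached it, which favours rises. A condition below the median on both arrays was called dim, and the median then replaced its level in a fold given as "at least".

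The test was limma 3.58.1 under R 4.3.3 (lmFit, eBayes with intensity trend, Benjamini-Hochberg adjustment over all genes tested, threshold 0.05). The model held time and genotype over all 6 arrays, which makes the arrays of a genotype a pair, with 2 residual and 8.99 prior degrees of freedom. The code was run on simulated data with 50 changed genes at each setting. On the log2 scale, 38 were recovered at a rise of 1 and 39 at a fall of 1. At a rise of 2, 50 were recovered, and at a fall of 2, 44, with 10 false calls. The simulated spread depended on mean intensity alone and was independent between arrays. It thus built in the intensity trend, and the recovery cannot check that assumption or the calls in the real data. The members and gene lists were chosen with earlier results of these data known. Named were a set list, up to 4 called members per list by size of change, and the 12 risen and 12 fallen genes with the largest smaller change of the pairs, the fallen only if not dim on either untreated array. Other list members were named after their values were seen. Promoters are RefSeq sequences of GRCm38.p6, 250 bases before to 50 after each start site, searched on both strands for 9 motifs in the bases before it. The closing section gives the alternatives tried.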

Additional observations from a re-analysis of the deposited data

Results flagged for a closer look

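The median change of the 8 B cell markers had opposite signs in the pairs: it was -0.22 in wild-type and 0.11 in Nrdp1-/- cells, 0.33 apart. The difference was not tested. Of the 8 markers Cd79b alone fell in limma (-0.65 ± 0.14), a call that ended without the 8 h Nrdp1-/- array.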

How the results depend on the processing

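The direction of the named genes that were called was kept under the alternatives tried, except for Uqcrq, whose change was -0.25 with probe sets averaged. Which of the counts was larger was not: fallen genes outnumbered risen ones after median centring (859 risen, 941 fallen), with the filter at the 70th percentile (1047 and 1062), with the 4 arrays alone (1328 and 1561), and without the 8 h wild-type array (1019 and 1139) or either 4 h array. The counts themselves moved. Without the intensity trend 103 genes rose and 5 fell. With at least 2-fold beside the adjusted p 311 rose and 46 fell, by construction. With probe sets averaged 435 fell, and with the 4 arrays alone 1561 fell. Leaving out each array in turn gave 689 to 1326 risen and 349 to 1537 fallen genes. Without the genotype term, that is without the pairing of arrays within a genotype (no replicate block), 585 rose and 198 fell. Genes at least 2-fold higher in both pairs numbered 668 with no filter on dim probe sets. Genes at least 2-fold lower in both numbered 15 with the larger pseudocount, 7 with the filter at the 70th percentile, 24 with probe sets averaged and 268 with no filter. Of 210 named genes that were called, 147 kept the call whichever array was left out. The call ended or turned in 157 without the trend, 77 without the genotype term, 63 with probe sets averaged, 6 after median centring and 5 after quantile normalization. The cause of these shifts was not tested. For genes dim in a condition the fold is given as a bound.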
